A study of Oryctolagus cuniculus with 10 samples.

Results

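The transcripts of 4 inflammatory rows were followed in the vocal folds of 10 rabbits: the row taken as S100A8 (ENSOCUG00000009566) and the rows ENSOCUG00000008771, ENSOCUG00000014998 and ENSOCUG00000026988, among which the interleukin-1 family genes IL1A and IL36A were sought. They are 4 of the 23669 gene rows in the count table, chosen by name and annotation. The study's lists that hold these IDs were drawn from genes it had called different in these same rabbits. Neither the direction nor the p-values of the 4 rows are therefore independent of that choice. All 4 had lower mean levels in the dehydrated rabbits than in the controls, by 4.07-fold for S100A8, 3.50-fold for ENSOCUG00000008771, 2.86-fold for ENSOCUG00000014998 and 2.21-fold for ENSOCUG00000026988. None of these differences passed the adjusted threshold, and none of the 4 rows separated the groups without overlap.

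S100A8 is a calcium-binding protein that pairs with S100A9 to form calprotectin, is abundant in neutrophils and monocytes, and is also made by stressed or injured stratified epithelium. IL1A is an interleukin-1 receptor agonist that keratinocytes hold preformed and release on damage, and IL36A is a related cytokine made mainly by epithelial cells that signals through its own receptor. Both lead target cells to make further cytokines, interleukin-6 among them. Chitinases and chitinase-like proteins, to which one of the rows turned out to be annotated, are secreted by epithelial cells and macrophages. The vocal fold is covered by stratified squamous epithelium over a fibroblast-rich lamina propria, with the thyroarytenoid muscle beneath.

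The study used male New Zealand White rabbits that were 6 months old. The 4 control rabbits (numbers 12, 14, 17 and 21) received saline and kept food and water, and the 6 dehydrated rabbits (numbers 13, 15, 16, 18, 19 and 22) received the loop diuretic furosemide at 5 mg/kg by intraperitoneal injection, repeated where needed, with food and water withheld, toward a 5% loss of body weight. All animals had been given sucrose water beforehand. Each library is RNA-Seq of the full depth of both vocal folds of 1 rabbit, mucosa together with muscle, so a lower level can come from fewer cells of a type or from less RNA per cell, and these cannot be told apart.

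Rows of the deposited table carry Ensembl IDs without names, and 0 of those IDs matched the gene table used here, so names rest on the study's own lists of annotation terms. S100A8 was assigned in this way. ENSOCUG00000026988 stands in those lists under chitin binding, chitinase activity and chitin breakdown as well as under inflammatory response and cytokine production, terms of a chitinase and not of an interleukin. ENSOCUG00000008771, listed under acute-phase response and wound healing, and ENSOCUG00000014998, listed under immune response, both stand under regulation of interleukin-6 production. If IL1A and IL36A are both among the 3 rows, these are the 2 IDs left for them, but which is which was not resolved and the IDs are used below. The annotation terms go against reading all 3 rows as interleukin-1 family genes.

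A library held between 39039165 and 69670859 gene counts. Levels are in CPM, counts scaled to a fixed library total, and 3 counts were worth 0.0431 to 0.0768 CPM in the deepest and the shallowest library, so that every member was far above that floor in every rabbit. CPM values are after TMM scaling, a correction for differences in library composition. These levels are not divided by gene length, so no level is compared between genes. In 5 libraries (rabbits 12, 13, 15, 16 and 17) 1.62 to 2.55% of reads were ambiguous between genes, against 0.487 to 0.590% in the other 5, and each set held 2 control and 3 dehydrated rabbits. Differences were tested with edgeR's quasi-likelihood test over the 15040 genes that passed its filter on low counts, with Benjamini-Hochberg adjustment and a threshold of 0.05. By this test 0 of the 15040 genes passed (0%), 1432 (9.52%) had an unadjusted p of at most 0.05, and 769 (5.11%) had such a p and were lower in the dehydrated rabbits. limma-voom also called 0 genes, edgeR's likelihood ratio test 13 and DESeq2 40.

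S100A8 was the most variable of the 4 rows. Its level was 101 CPM in control rabbit 12, 35.8 in rabbit 14, 2.02 in rabbit 17 and 51.3 in rabbit 21. In the dehydrated group it was 37.6 CPM in rabbit 13, 10.6 in rabbit 15, 2.55 in rabbit 16, 2.59 in rabbit 18, 12.9 in rabbit 19 and 3.80 in rabbit 22. The highest and the lowest value of all 10 rabbits were thus both controls, 50.1-fold apart, while 5 of the 6 dehydrated rabbits lay below the other 3 controls. The mean was 47.6 ± 41.2 CPM in the controls (SD, n = 4) and 11.7 ± 13.4 CPM in the dehydrated rabbits (SD, n = 6). The log2 fold change was −2.02 (SE 0.94, edgeR adjusted p = 0.522), and a 2-sided exact permutation test on log2 CPM over all 210 splits of the rabbits gave p = 0.200, where the smallest p that this design allows is 0.00952. The log2 fold change was −1.35 when control rabbit 12 was left out and −2.87 when dehydrated rabbit 13 was. Within-group variation was large even for this data set. The pooled within-group SD of log2 CPM was 1.95 for S100A8, against a median of 0.41 over all genes tested, and 1.79% of genes had a larger one.

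ENSOCUG00000008771, one of the 2 rows under interleukin-6 production, was low in most libraries and high in 2. It reached 14.5 CPM in control rabbit 12 and 11.4 in control rabbit 21, against 2.22 in control rabbit 14 and 2.38 in control rabbit 17. The dehydrated rabbits had 1.60 CPM (rabbit 13), 0.813 (rabbit 15), 3.41 (rabbit 16), 1.55 (rabbit 18), 3.41 (rabbit 19) and 2.27 (rabbit 22). Controls 14 and 17 lay inside the range of the dehydrated group, and the group difference is carried by rabbits 12 and 21. The controls averaged 7.63 ± 6.27 CPM (SD, n = 4) and the dehydrated rabbits 2.18 ± 1.06 CPM (SD, n = 6). The log2 fold change was −1.81 (SE 0.59, edgeR unadjusted p = 0.0109, adjusted p = 0.483). The exact permutation test gave p = 0.124.

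ENSOCUG00000014998, the other row under interleukin-6 production, showed the same 2 controls on top. Its level was 385 CPM in control rabbit 12, 183 in rabbit 14, 89.5 in rabbit 17 and 644 in rabbit 21. Among the dehydrated rabbits it was 67.7 CPM in rabbit 13, 111 in rabbit 15, 136 in rabbit 16, 75.3 in rabbit 18, 186 in rabbit 19 and 107 in rabbit 22. Only rabbits 13 and 18 lay below the lowest control, and rabbit 19 lay just above control rabbit 14. The controls averaged 325 ± 246 CPM (SD, n = 4) and the dehydrated rabbits 114 ± 43.3 CPM (SD, n = 6). The log2 fold change was −1.52 (SE 0.47, edgeR unadjusted p = 0.00862, adjusted p = 0.483). The exact permutation test gave p = 0.0857. Leaving out control rabbit 17 gave −1.83 on the log2 scale and an edgeR adjusted p of 0.0423, in a fit in which 502 of 15211 genes (3.3%) were called. Leaving out control rabbit 21 gave −0.94.

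ENSOCUG00000026988, the row with chitinase terms, was 120 CPM in control rabbit 12, 21.3 in rabbit 14, 37.3 in rabbit 17 and 49.9 in rabbit 21. Its dehydrated values were 65.8 CPM in rabbit 13, 26.4 in rabbit 15, 14.8 in rabbit 16, 19.5 in rabbit 18, 21.7 in rabbit 19 and 6.52 in rabbit 22. Dehydrated rabbit 13 was above 3 of the 4 controls, and the other 5 lay among or below the lower controls. The controls averaged 57.1 ± 43.5 CPM (SD, n = 4) and the dehydrated rabbits 25.8 ± 20.7 CPM (SD, n = 6), with a log2 fold change of −1.15 (SE 0.60, edgeR unadjusted p = 0.0817, adjusted p = 0.546) and an exact permutation p of 0.124. The value rested on 2 animals in opposite directions, since the log2 fold change was −0.49 without control rabbit 12 and −1.69 without dehydrated rabbit 13.

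**Figure D1:**
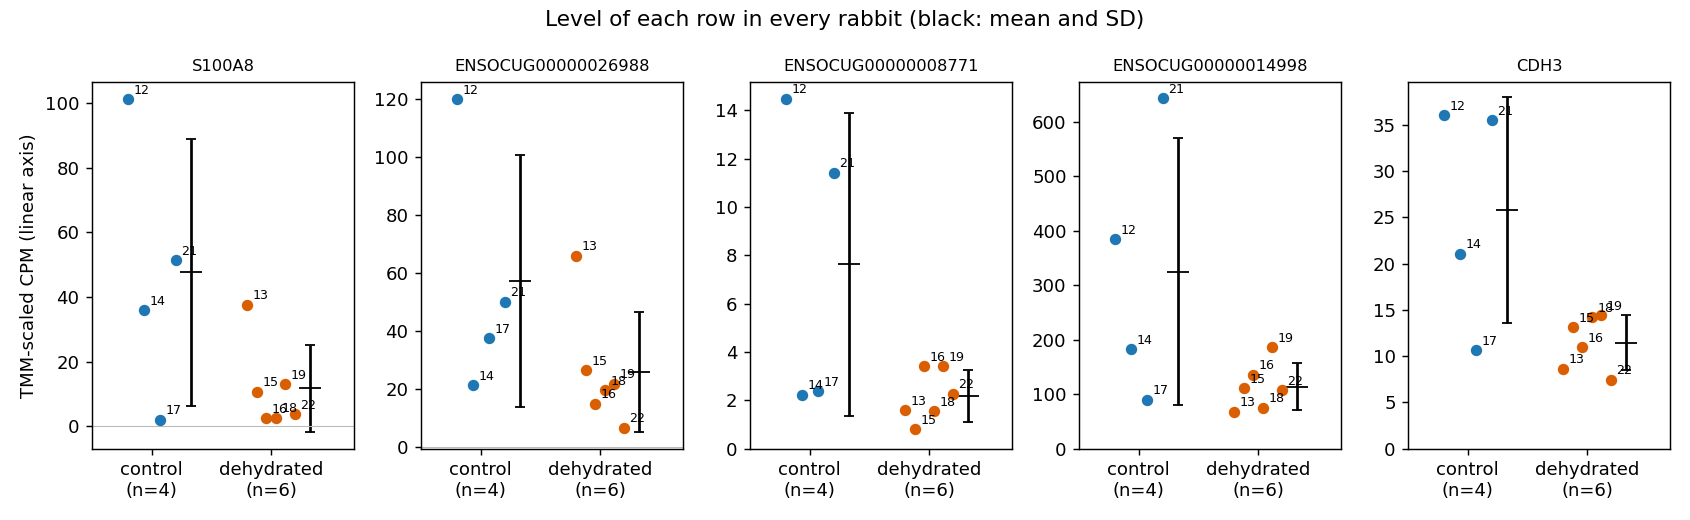
Level of each of the 4 rows and of the CDH3 row in CPM (linear axes, 1 panel per row), with 1 numbered point per rabbit and black bars for the mean and SD of the 4 control and 6 dehydrated rabbits. S100A8 spans 2.02 to 101 CPM within the controls alone, and rabbit 13 stands at the top of the dehydrated group for S100A8 (37.6 CPM) and ENSOCUG00000026988 (65.8 CPM).

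Read over the 4 rows together, 6 of 6 dehydrated rabbits were below the control mean for S100A8, ENSOCUG00000008771 and ENSOCUG00000014998, and 5 of 6 for ENSOCUG00000026988. That mean is raised by the highest controls. Control rabbits 14 and 17 were also below it for all 4 rows, and control rabbit 21 for ENSOCUG00000026988. Far fewer were below the lowest control: 0, 3, 2 and 3 of 6 in the same order. A complete separation of the groups was seen in 1.22% of all genes tested and in 0 of the 4 rows. ENSOCUG00000008771 and ENSOCUG00000014998, 2 of the 4 rows, were lower at an unadjusted p of at most 0.05, against the 5.11% of all genes given above. S100A8, the row with the largest fold change, was not among them (unadjusted p = 0.0554 in edgeR's test across all genes, exact permutation p = 0.200). This count depended on the test. With the library set as a covariate, an alternative added after seeing the data, S100A8 had an unadjusted p = 0.0459 and ENSOCUG00000026988 an unadjusted p = 0.0468 (edgeR adjusted p = 0.605 for both). All 4 rows then had a p of at most 0.05, against 4.49% of all genes with such a p and lower. All 4 also had one by DESeq2 (background 6.53%) and by the likelihood ratio test (4.7%), and 2 by limma-voom (4.3%). The 4 rows come from lists of genes the study had called different in these same rabbits. More low p-values than in all genes were therefore built into the choice, and these counts are not evidence of enrichment. The median log2 fold change of all genes was 0.04. Within the 5 libraries with more ambiguous reads the difference in mean log2 CPM was −0.51 for S100A8, −1.81 for ENSOCUG00000008771, −0.88 for ENSOCUG00000014998 and −1.18 for ENSOCUG00000026988. Within the other 5 it was −3.08, −1.13, −1.58 and −1.22 in the same order, so each row was lower in both sets. The S100A8 value in the first set is set by control rabbit 17, at 2.02 CPM.

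CDH3 encodes P-cadherin, an adhesion protein of the basal layer of stratified epithelium, and its row (ENSOCUG00000029153) served as the epithelial reference. It was at 36.0, 21.1, 10.6 and 35.5 CPM in control rabbits 12, 14, 17 and 21, and at 8.65, 13.1, 10.9, 14.2, 14.4 and 7.43 CPM in dehydrated rabbits 13, 15, 16, 18, 19 and 22. Controls 12 and 21 were again the highest, and control 17 lay inside the dehydrated range. The log2 fold change of CDH3 was −1.17 (SE 0.32, edgeR unadjusted p = 0.00429, adjusted p = 0.483), with an exact permutation p of 0.0476. The rows of NECTIN1 and SDC1, an adhesion protein and a heparan sulfate proteoglycan of epithelial cells, and of CLDN7, an epithelial claudin, had log2 fold changes of −1.16, −1.16 and −0.94. All 8 rows listed under intermediate filament, taken as keratin rows, were lower too, with a median log2 fold change of −1.51, against 44.4% of all genes lower. These rows and the epithelial rows come from the study's lists drawn up on the same rabbits, so neither their direction nor their p-values are independent evidence. Averaged over these 8 rows as log2 against their control mean, rabbits 12, 14, 17 and 21 stood at 0.57, 0.32, −1.60 and 0.71, and the dehydrated rabbits between −1.73 and −0.89. Rabbits 12 and 21 were thus high and most dehydrated rabbits low in epithelial and member rows, while rabbit 13, with the lowest value over the 8 rows, was high for S100A8 and ENSOCUG00000026988. The part of epithelial content in the members' levels was not tested.

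Whether a member's group difference exceeded that of CDH3 was asked with log2(member CPM/CDH3 CPM) in each rabbit. In mean log2 CPM the groups differed by −1.06 for CDH3 (SE 0.44), and by −1.79 (SE 1.39) for S100A8, −1.47 (SE 0.78) for ENSOCUG00000008771, −1.23 (SE 0.66) for ENSOCUG00000014998 and −1.20 (SE 0.68) for ENSOCUG00000026988. The ratio takes the CDH3 difference off every row by construction, so the smaller values that follow are not a result in themselves. What was left was −0.74 (SE 1.08, exact permutation p = 0.476) for S100A8 and −0.42 (SE 0.56, exact permutation p = 0.486) for ENSOCUG00000008771. It was −0.18 (SE 0.34, exact permutation p = 0.648) for ENSOCUG00000014998 and −0.14 (SE 0.63, exact permutation p = 0.771) for ENSOCUG00000026988. No member thus differed from CDH3 in its group difference by more than the standard error. Leaving out 1 rabbit moved the S100A8 value from −1.57 (without control 17) to −0.28 (without control 12), and that of ENSOCUG00000008771 from −0.80 (without control 14) to −0.12 (without dehydrated 15). Adjusted over the 4 ratios all of these p-values became 0.771. These SEs leave room for a difference in either direction, most of all for S100A8. With the NECTIN1, SDC1 or CLDN7 row in place of CDH3, the differences stayed negative, between −1.03 and −0.82 for S100A8 and between −0.70 and −0.49 for ENSOCUG00000008771. They lay between −0.46 and −0.22 for ENSOCUG00000014998 and ENSOCUG00000026988. Their SEs ran from 0.29 to 1.08 and their exact permutation p from 0.295 to 0.762. These 3 rows had r = 0.888, 0.925 and 0.883 with CDH3, so the shared sign is not separate evidence.

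**Figure D2:**
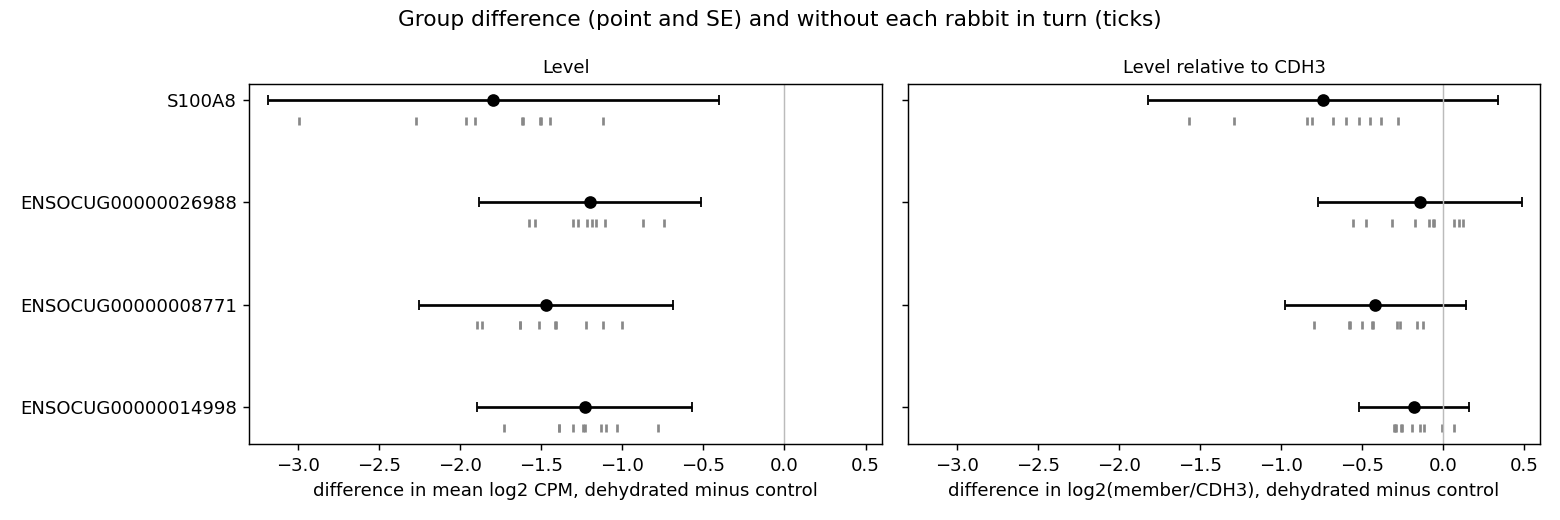
Difference between dehydrated and control rabbits for the 4 rows, in mean log2 CPM (left) and in log2(member/CDH3) (right); points are the estimate with its SE, and ticks under each point leave out 1 rabbit at a time. On the left every tick stays below 0, from −2.99 to −0.74 over the rows, whereas on the right the ticks of ENSOCUG00000014998 and ENSOCUG00000026988 reach 0.07 and 0.12.

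The ratios also show how differently single rabbits behaved. For S100A8 the log2 ratio to CDH3 was 1.49, 0.76, −2.38 and 0.53 in control rabbits 12, 14, 17 and 21, and 2.12, −0.30, −2.09, −2.44, −0.16 and −0.96 in dehydrated rabbits 13, 15, 16, 18, 19 and 22. The highest ratio of all 10 was thus in a dehydrated rabbit, and very low ratios occurred in both groups. For ENSOCUG00000026988 rabbit 13 was also the highest, at 2.92, followed by control rabbits 17 at 1.81 and 12 at 1.73. ENSOCUG00000014998 held the narrowest ratio, from 2.40 in dehydrated rabbit 18 to 4.18 in control rabbit 21. ENSOCUG00000008771 ran from −3.95 in dehydrated rabbit 15 to −1.31 in control rabbit 12.

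Whether the 4 rows rose and fell together was asked with correlations of log2 CPM over the 10 rabbits, for the 10 pairs among the 4 rows and CDH3, with permutation p-values (100000 resamples) adjusted over these 10 pairs. All 10 were positive, and 2 passed. ENSOCUG00000008771 and ENSOCUG00000014998 had a Pearson r of 0.863 (p = 0.00347, adjusted p = 0.0173) and a Spearman rho of 0.745 (adjusted p = 0.0844). ENSOCUG00000014998 and CDH3 had an r of 0.878 (p = 0.00158, adjusted p = 0.0158) and a rho of 0.794 (adjusted p = 0.0844). Both values rested on control rabbits 12 and 21, the 2 animals farthest from the median: without them r was 0.487 and 0.575, with an adjusted permutation p of 0.542 for each. Because the groups differ in mean, a correlation over all 10 rabbits also holds the group difference. An r of 0.863 or more was reached with ENSOCUG00000008771 by 0.133% of the other tested genes, and with ENSOCUG00000014998 by 1.90%. An r with S100A8 as high as that of a member was reached by 7.44% (ENSOCUG00000026988), 10.6% (ENSOCUG00000014998) and 19.4% (ENSOCUG00000008771). For ENSOCUG00000026988 the share was 14.9% with ENSOCUG00000008771 and 22.3% with ENSOCUG00000014998.

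S100A8 went with ENSOCUG00000026988 at r = 0.693 (rho = 0.648), with an adjusted permutation p of 0.0557 for r and 0.161 for rho. The 2 farthest rabbits are chosen by the first row of a pair and were 12 and 21 where that row was not S100A8. Values without them are therefore not comparable between such pairs and those of S100A8. Here they were controls 12 and 17 (r = 0.750 without both, permutation p = 0.0299, adjusted p = 0.299). Without control 12 alone r fell to 0.548, and without control 17 alone it rose to 0.830. S100A8 with ENSOCUG00000014998 had r = 0.647 and rho = 0.539 (adjusted permutation p = 0.0695 and 0.229), with r falling to 0.498 without controls 12 and 17. S100A8 with ENSOCUG00000008771 had r = 0.526 and rho = 0.358 (adjusted permutation p = 0.158 and 0.392), falling to 0.314. ENSOCUG00000026988 was least related to the other 2 rows, with r = 0.485 for ENSOCUG00000008771 and 0.393 for ENSOCUG00000014998, and both turned negative without rabbits 12 and 21 (−0.30 and −0.38).

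**Figure D3:**
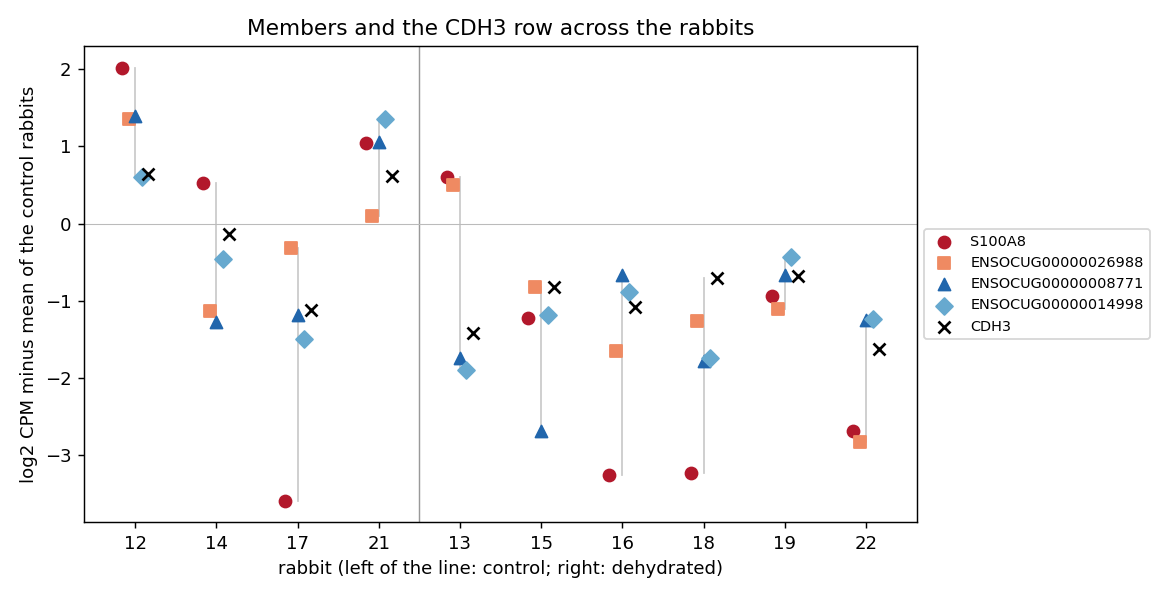
Level of the 4 rows and CDH3 in each rabbit as log2 CPM minus the control mean of that row, controls left of the line and dehydrated rabbits right, with a thin line joining the extremes within a rabbit. In rabbit 13 S100A8 and ENSOCUG00000026988 lie above 0 while ENSOCUG00000008771, ENSOCUG00000014998 and CDH3 lie below −1.

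CDH3 was related to S100A8 with r = 0.696 and rho = 0.612 (adjusted permutation p = 0.0557 and 0.167), to ENSOCUG00000008771 with r = 0.745 and rho = 0.491 (adjusted permutation p = 0.0535 and 0.259), and to ENSOCUG00000026988 with r = 0.590 and rho = 0.394 (adjusted permutation p = 0.103 and 0.376). Without rabbits 12 and 21 these r values were 0.326, −0.02 and 0.110. Only ENSOCUG00000014998 therefore followed the epithelial row past the threshold, and whether its correlation differs from those of the other 3 was not tested. Against the wider table, 1.50% of the other tested genes had an r with ENSOCUG00000014998 at least as high as CDH3 did. The corresponding share was 7.27% for S100A8, 1.40% for ENSOCUG00000008771 and 7.59% for ENSOCUG00000026988. These shares are over all rabbits, so they also hold the group difference. Within the dehydrated rabbits alone they were 34.2% for ENSOCUG00000014998, 55.6% for S100A8, 56.1% for ENSOCUG00000008771 and 39.3% for ENSOCUG00000026988.

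The other 3 epithelial rows gave 12 more pairs, adjusted on their own. Both sides of each pair come from lists drawn up on these same rabbits, and the permutations mix the groups. Low p-values over all rabbits were therefore partly built in. ENSOCUG00000014998 followed SDC1 with r = 0.933 and rho = 0.903 (adjusted permutation p of r = 0.000840) and NECTIN1 with r = 0.917 and rho = 0.915 (adjusted permutation p = 0.00114), and r was 0.754 and 0.913 without the 2 farthest rabbits of each. With CLDN7 the r was 0.764 and the rho 0.467 (adjusted permutation p = 0.0393), and r fell to 0.0352 without rabbits 12 and 21. For every member the rabbits left out were 12 and 21 for SDC1 and CLDN7, but 14 and 21 for NECTIN1. The NECTIN1 values without the 2 farthest rabbits thus still hold control rabbit 12, and are not comparable with those of SDC1 and CLDN7. S100A8 had r = 0.730 with NECTIN1, 0.678 with SDC1 and 0.748 with CLDN7 (adjusted permutation p = 0.0407, 0.0535 and 0.0393), and 0.664, 0.368 and 0.526 without the 2 farthest rabbits. Its rho was 0.612, 0.588 and 0.770 (adjusted permutation p = 0.164, 0.164 and 0.0501). ENSOCUG00000008771 had r = 0.714 with NECTIN1 and 0.725 with SDC1 (adjusted permutation p = 0.0407 for each) and 0.588 with CLDN7 (adjusted permutation p = 0.0962). Without the 2 farthest rabbits these were 0.764, 0.0464 and −0.59, and its rho was 0.588, 0.455 and 0.103 (adjusted permutation p = 0.164, 0.289 and 0.856). ENSOCUG00000026988 was related to none of them past the threshold, with r between 0.315 and 0.540 and rho between 0.0424 and 0.382.

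**Figure D4:**
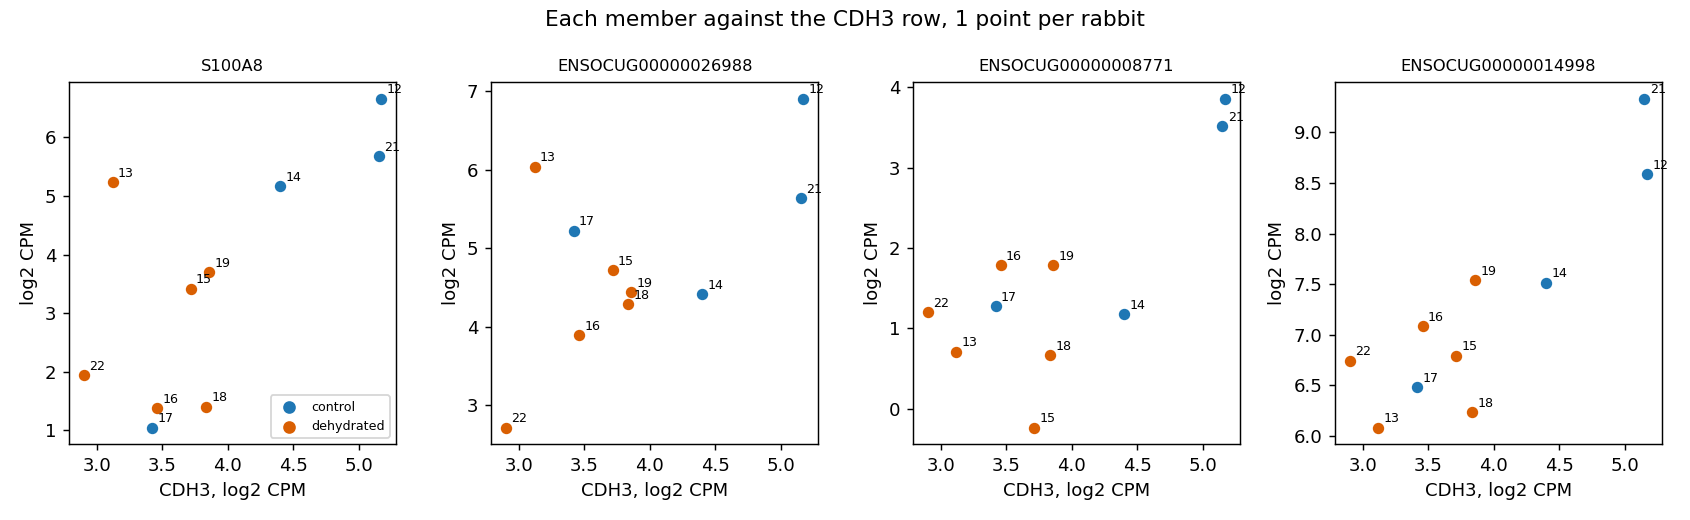
Level of each of the 4 rows against the CDH3 row, both in log2 CPM, with 1 numbered point per rabbit coloured by group. ENSOCUG00000014998 lies closest to a line (r = 0.878), with control rabbits 12 and 21 at its upper end, and dehydrated rabbit 13 stands above the other rabbits of low CDH3 for S100A8 and ENSOCUG00000026988.

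Within the 6 dehydrated rabbits alone, none of the 10 pairs passed. The highest r was that of S100A8 and ENSOCUG00000026988, at 0.787 (rho = 0.771, exact permutation p = 0.0569, adjusted p = 0.569). Dehydrated rabbit 13 was the highest of the 6 for both rows, and this r was not computed without it. ENSOCUG00000008771 and ENSOCUG00000014998 had r = 0.573 (exact permutation p = 0.249), and ENSOCUG00000014998 and CDH3 r = 0.338 (exact permutation p = 0.499). CDH3 had r = −0.12 with S100A8, −0.09 with ENSOCUG00000008771 and 0.208 with ENSOCUG00000026988. The 4 control rabbits are too few for a correlation of their own.

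The rows split in rabbit 13. Dehydrated rabbit 13 ranked 3 of 10 for S100A8 and 2 of 10 for ENSOCUG00000026988, counted from the highest, yet 8 for ENSOCUG00000008771, 9 for CDH3 and NECTIN1, and last for ENSOCUG00000014998 and SDC1, with CLDN7 in between at 6. Control rabbit 17 showed another pattern. S100A8 was last there together with NECTIN1 and CLDN7, with SDC1 at 9 and CDH3 at 8, while ENSOCUG00000026988 ranked 4 of 10. Without rabbit 13 the r of CDH3 rose from 0.696 to 0.888 with S100A8 and from 0.590 to 0.821 with ENSOCUG00000026988 (adjusted permutation p = 0.00987 and 0.0112). With TMM scaling, both rows thus passed the threshold with CDH3 by r, but only S100A8 by rho (adjusted permutation p = 0.0413 and 0.152). Rabbit 13 was picked from these same values, so a rise in r was built in and the passes are not independent evidence. Without control rabbit 12 instead, r with CDH3 was 0.564 for S100A8 and 0.369 for ENSOCUG00000026988. The scaling mattered too. With total-count scaling and all 10 rabbits S100A8 passed with CDH3 (r = 0.773, adjusted permutation p = 0.0255). ENSOCUG00000026988 did not (r = 0.653, adjusted permutation p = 0.0560).

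Over all genes, the row most like ENSOCUG00000014998 was ENSOCUG00000000786, with r = 0.982 over the 10 rabbits. It is also listed under inflammatory response, and its mean went from 73.5 to 34.0 CPM (log2 fold change −1.11). The row most like ENSOCUG00000026988 was ENSOCUG00000002424, with r = 0.916 and means of 203 and 54.4 CPM (log2 fold change −1.90), listed under inflammatory response and cell chemotaxis. An r over 0.9 was reached with 138 genes (0.918% of the other tested genes) for ENSOCUG00000014998 and with 31 (0.206%) for S100A8. For ENSOCUG00000008771 and ENSOCUG00000026988 it was reached with 4 each (0.0266%). These r values are over all rabbits and also hold the group difference. For S100A8 and ENSOCUG00000008771 the closest rows had r = 0.973 and 0.934 but log2 fold changes of only −0.32 and −0.57.

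The members' annotation terms place them beside other genes of the study's lists. These hold genes the study had called different in these same rabbits. They give no independent evidence of a direction or of an excess of low p-values. Of the 13 tested rows under inflammatory response, which include all 4 members, 12 were lower and 1 was higher, 10 had an unadjusted edgeR p of at most 0.05, all of them lower, and 0 passed after adjustment. Leaving out the members, 8 of 9 were lower, 8 had such a p, and the median log2 fold change was −1.11, against 44.4% of all genes lower and a median of 0.04. Of all genes tested, 9.52% had such a p, and 5.11% had one and were lower. Interleukin-6 production held 4 rows: ENSOCUG00000008771, ENSOCUG00000014998 and 2 more. Those had log2 fold changes of 3.90 (unadjusted p = 0.0864) and −1.43 (unadjusted p = 0.0178) by edgeR's test across all genes. S100A8 also stands under cell chemotaxis, whose other 6 rows split evenly, 3 lower and 3 higher.

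Chitin binding held ENSOCUG00000026988 and 1 further row. That row was at 110 CPM in control rabbit 12 and at 12.5, 18.4 and 26.2 CPM in control rabbits 14, 17 and 21, against 1.99 to 24.1 CPM in the dehydrated rabbits. Like ENSOCUG00000026988 it was far highest in control rabbit 12, but in rabbit 13 it was at 20.6 CPM and did not stand out. Its log2 fold change was −1.69 (SE 0.69, edgeR adjusted p = 0.494), with an exact permutation p of 0.105.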

How the data were processed

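The authors trimmed reads to a Phred score of 30 and at least 50 bases and mapped them with STAR 2.5.4b to OryCun2.0 with the Ensembl 95 annotation. The deposited values are raw counts of each gene in each rabbit, and the submitters' processing notes also name HTSeq 0.7.0. Strand setting is not given in the sources used here. Of each library, 41.1 to 55.7% was not assigned to a gene, and 14.6 to 35.0% had several positions, so rows with close copies (S100 and chitinase families) may have lost reads. Both shares split along the 2 library sets. In rabbits 12, 13, 15, 16 and 17, 14.6 to 19.8% had several positions, against 26.0 to 35.0% in the other 5. Unassigned reads were 41.1 to 43.0% against 48.5 to 55.7%. All 45 pairs of libraries differed beyond counting noise.

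Counts were analysed in R (version 4.3.3) using edgeR (4.0.16), DESeq2 (1.42.0) and limma (3.58.1), and in Python (3.11.15) using scipy (1.17.1), pandas (2.3.3), numpy (2.4.6), statsmodels (0.14.6) and matplotlib (3.10.9). The 5 lines of unassigned reads were left out, and 0 columns were unused. Groups were compared by the quasi-likelihood F test of edgeR after TMM scaling, and log2 CPM used a prior count of 2. SEs of log2 fold changes are the fold change over the square root of F, and SEs of differences in means come from the SDs of both groups. Tested on simulated counts of this comparison, the fit recovered 20.6% of 199 genes changed 2-fold (14825 genes tested), 72.5% of 193 changed 4-fold (14803) and 88.7% of 195 changed 8-fold (14813). Among genes left unchanged, 2, 5 and 9 were called at 2-fold, 4-fold and 8-fold. The simulation drew each gene on its own, without variation shared across genes within a rabbit. Its rates are averages over genes picked at random, and do not give the chance of recovering a row as variable as S100A8. Cuffdiff, which the study used, needs alignments and was not rerun. Each library is from 1 rabbit, and p-values measure the spread between rabbits.

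The 4 members, the epithelial rows and the term lists were chosen with earlier results of these data known. Genes beyond the members were named as the row with the highest r for each, printed where it moved most, in at most 2 cases. Marker lists by gene symbol (epithelial, muscle, immune and other cells, the wider S100 and interleukin-1 families) need a pairing of IDs with symbols and were not run. No sequence is shown for the same reason. Alternatives were RLE and total-count scaling, 2 other filters, DESeq2, the likelihood ratio test, limma-voom, a prior count of 0.5, other reference rows and leaving out each rabbit. The library set as a covariate and leaving out each rabbit in the correlations were added after seeing the data.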

Additional observations from a re-analysis of the deposited data

Results flagged for a closer look

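Among the 16 ends of the 8 groups of values (4 rows in 2 groups), 2 stood apart from the rest of their group by Dixon's criterion on linear CPM, which chance meets in about 1 of 20 groups. Both belong to dehydrated rabbit 13. S100A8 was at 37.6 CPM there, with a gap to the next rabbit of 0.704 of the group's range. ENSOCUG00000026988 was at 65.8 CPM, with a gap of 0.665 of the range. On log2 CPM, the scale of the tests and correlations, the gaps were 0.398 and 0.395 and 0 of the 16 ends stood apart. The row ENSOCUG00000014998 and the epithelial rows CDH3, NECTIN1 and SDC1 were among the lowest of the 10 rabbits in the same library, CLDN7 ranked 6 of 10 there, and the cause was not tested.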

How the results depend on the processing

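The group differences of the 4 rows stayed negative under all 72 alternatives run, and 71 stayed on the same side of the adjusted threshold. The exception was ENSOCUG00000014998 without control rabbit 17, and its log2 fold change ranged from −1.83 to −0.94 when 1 rabbit was left out. The adjusted p of the rows ran from 0.0676 to 0.990 (ENSOCUG00000008771), 0.106 to 0.990 (S100A8), 0.0423 to 0.990 (ENSOCUG00000014998) and 0.257 to 0.990 (ENSOCUG00000026988). Genes past the threshold numbered 0 except with DESeq2 (40), the likelihood ratio test (13) and without control rabbit 17, for a range of 0 to 502 over the rabbits left out.

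The ratio to CDH3 turned positive for ENSOCUG00000014998 without control 21 (0.067; range −0.30 to 0.067 over the rabbits left out) and for ENSOCUG00000026988 without control 12 (0.10), control 17 (0.12) or dehydrated 22 (0.07), over a range of −0.55 to 0.12. It stayed negative for S100A8 (−1.57 to −0.28) and ENSOCUG00000008771 (−0.80 to −0.12). The 2 correlations that passed did not pass with Spearman's rho (0.745 and 0.794) or in the dehydrated rabbits alone (0.573 and 0.338). With total-count scaling 4 more passed, namely S100A8 with ENSOCUG00000014998 (0.717), with ENSOCUG00000026988 (0.746) and with CDH3 (0.773), and ENSOCUG00000008771 with CDH3 (0.779). In the dehydrated rabbits alone r was negative for S100A8 with ENSOCUG00000008771 (−0.27), ENSOCUG00000014998 (−0.16) and CDH3 (−0.12), for ENSOCUG00000008771 with ENSOCUG00000026988 (−0.37) and CDH3 (−0.094), and for ENSOCUG00000014998 with ENSOCUG00000026988 (−0.39). Without the 2 farthest rabbits it was −0.30 for ENSOCUG00000008771 with ENSOCUG00000026988, −0.38 for ENSOCUG00000014998 with ENSOCUG00000026988 and −0.018 for CDH3 with ENSOCUG00000008771, and the 2 that had passed were at 0.487 and 0.575.

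Leaving out 1 rabbit at a time, r stayed positive for all 10 pairs. It ran from 0.807 to 0.922 for ENSOCUG00000008771 with ENSOCUG00000014998 and from 0.823 to 0.923 for CDH3 with ENSOCUG00000014998, neither passing without control 12 or 21. It ran from 0.537 to 0.860 for S100A8 with ENSOCUG00000014998 and from 0.548 to 0.830 for S100A8 with ENSOCUG00000026988, and with CDH3 from 0.564 to 0.888 for S100A8, 0.603 to 0.817 for ENSOCUG00000008771 and 0.369 to 0.821 for ENSOCUG00000026988. Each of these 5 passed without at least 1 rabbit. The cause was not tested for any of these. No paired analysis was possible because the control and dehydrated rabbits share no numbers.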
